A study of Homo sapiens with 11 samples.

Results

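The replication-dependent histone genes encode the linker histone H1 and the core histones H2A, H2B, H3 and H4 that are made while DNA is copied. They were taken as every gene symbol beginning with HIST1 to HIST4 followed by a histone class, leaving out 1 symbol that the name marks as a pseudogene. This gave 71 of the 23608 gene symbols analysed, with 6 in class H1, 17 in H2A, 20 in H2B, 14 in H3 and 14 in H4. The rule reads gene names and no measured value.

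Each core nucleosome wraps DNA around pairs of H2A, H2B, H3 and H4, and H1 binds the DNA where it enters and leaves. Transcription of these genes is switched on at the start of S phase by NPAT, and most of their mRNAs are not polyadenylated: they end in a conserved stem-loop that SLBP binds, and the U7 small nuclear ribonucleoprotein directs the cut just after it. When DNA synthesis stops, the same stem-loop is the entry point for rapid decay of the mRNA, which ties histone mRNA level to DNA replication.

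RNA was sequenced from A549, a line of human lung adenocarcinoma cells, in 11 libraries. Cells received the vehicle DMSO for 48 hours (2 libraries, replicates 2 and 3) or 2 weeks (3 libraries), or cigarette smoke condensate (CSC, the particulate matter of smoke taken up in solvent) for 48 hours (3 libraries) or 2 weeks (3 libraries). The labels write the CSC dose as 20 uM, and all groups share the cell line. RNA was depleted of ribosomal RNA rather than selected for poly(A) tails, so mRNAs ending in a stem-loop were kept. The values are FPKM (fragments per kilobase of transcript, relative to the library's fragments), which are scaled to length. Levels of genes of unlike length are comparable only within the limit given below. Nothing in the labels says whether the replicates came from different cultures. The p-values therefore cover the spread among these libraries alone, which could be technical.

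The libraries differed in ways that touch the histone values. The depth in reads is unknown. Judged by how wide the authors' bounds are, CSC 2 weeks replicate 2 was 2.84 times as deep as the shallowest library, and each of the other 10 at most 1.56 times. That library also had the lowest level of RPPH1, the RNA of ribonuclease P, at an FPKM of 16212 against 21993 to 37833 in the other 10. For short genes such as histones the FPKM stood above the midpoint of its own bounds, by a median factor over the members of 1.48 to 1.61 per library, highest in CSC 2 weeks replicate 2. Among other genes this median factor fell with the annotated span. It was 1.47 to 1.96 per library in the shortest spans examined and 1.00 in the longest. Levels of genes of unlike length are therefore not strictly comparable. The summed FPKM was between 338507 and 484053 per library, highest in CSC 2 weeks replicate 1. Epithelial keratins KRT7, KRT8 and KRT18 stood between 573 and 1765, while COL1A2 and PDGFRB (fibroblasts), PTPRC (leukocytes), PECAM1 (endothelium), HBB (erythroid cells) and ALB (liver) stood between 0 and 0.0966. The epithelial adhesion genes EPCAM and CDH1 were far lower than the keratins, at 2.59 to 8.15 and 2.51 to 11.1. The fibroblast collagen COL1A1 was at 3.73 to 11.5 and the macrophage marker CD68 at 3.81 to 7.24, a similar range.

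The stem-loop that defines these mRNAs was present in the DNA of nearly all members. The motif, which reads GG, any 2 bases, CTTTT, any base, AG, any 2 bases and CC, was searched on the gene's strand within each locus and 100 bases either side and was found at 69 of 72 loci (95.8%). Searched on both strands it was found in 63 of the 66 member loci shorter than 1 kb (95.5%) and in 4 of 2379 other loci of that size (0.168%), of which 1 was the histone pseudogene left out above. The 3 loci without this sequence were HIST1H2BI, HIST1H3E and HIST1H4L. The stems fell into classes: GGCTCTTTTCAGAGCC stood at 41 loci of H1, H2A, H2B and H3, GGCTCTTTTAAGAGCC at 10 loci, and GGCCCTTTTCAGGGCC at 10 loci that were all H4. A match is a description of the DNA and not evidence that the site is used.

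Stem-loops of abundant members of each class are shown from the reference build hg19, 5′ to 3′ on the gene's strand, with the 16 bases of the stem-loop in capitals, so that the class difference in the stem can be read. They lie at chr6:26055967-26055992 (minus strand) for HIST1H1C, chr6:26124892-26124917 (plus) for HIST1H2AC, chr6:26123695-26123720 (minus) for HIST1H2BC, chr1:149783435-149783460 (minus) for HIST2H2BF, chr6:26031820-26031845 (minus) for HIST1H3B, chr6:26104540-26104565 (plus) for HIST1H4C and chr6:26205224-26205249 (plus) for HIST1H4E.
HIST1H1C: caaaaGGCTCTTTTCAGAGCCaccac
HIST1H2AC: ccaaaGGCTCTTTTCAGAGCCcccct
HIST1H2BC: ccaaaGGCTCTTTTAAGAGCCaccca
HIST2H2BF: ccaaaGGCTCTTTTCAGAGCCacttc
HIST1H3B: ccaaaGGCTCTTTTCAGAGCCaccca
HIST1H4C: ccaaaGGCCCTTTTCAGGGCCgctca
HIST1H4E: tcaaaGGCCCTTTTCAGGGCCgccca
At 60 loci the stem-loop ended 1 to 11 bases before the annotated end of the gene, and at 44 of them exactly 5 bases before it. In HIST2H2BF it stood 29195 bases before the end, because the annotated locus runs far past the stem-loop. HIST2H2BF is 1 of 6 member loci spanning more than 1 kb, 5 of them H2B genes over an FPKM of 20 and the sixth HIST1H3D, whose FPKM can include longer transcripts.

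The classes also differed in their promoters. Whether promoter motifs bear on the changes in level described below was not tested. Windows of 250 bases before to 50 bases after the start were available in RefSeq (GRCh38.p14) for 56 members, 4 of them with 2 windows, and a member was counted once, as holding a motif where either window did. The octamer ATTTGCAT, the site known for the factor OCT1 in H2B promoters, stood on either strand in 12 of 16 H2B and 11 of 14 H2A genes, against 1 of 10 in H3, 0 of 6 in H1 and 0 of 10 in H4. The H3 gene was HIST1H3D, through a window that is also that of HIST1H2AD. It was in 1.77% of all 35116 promoter windows. CCAAT, searched on both strands, stood in all H1, H2A, H2B and H3 genes with a window (6, 14, 16 and 10) and in 2 of 10 H4 genes, against 34.6% of all windows. TATAAA, on either strand, stood in 67.9% of the 56 members and 11.5% of all windows. None of the 3 motifs contains another. The H2A and H2B counts are not independent, since the windows of 9 pairs of an H2A and an H2B gene overlap by 253 to 293 bases. A motif in such an overlap was counted for both genes.

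One promoter of each of 4 classes is shown as the 200 bases before the start, with octamer, CCAAT and TATAAA matches of either strand in capitals, so that the contrast between H2B and H4 can be seen. The intervals are chr6:26056471-26056670 (minus strand) for HIST1H1C, chr6:26123927-26124126 (minus) for HIST1H2BC, chr6:26032100-26032299 (minus) for HIST1H3B and chr6:26204410-26204609 (plus) for HIST1H4E, all in GRCh38.p14.
HIST1H1C: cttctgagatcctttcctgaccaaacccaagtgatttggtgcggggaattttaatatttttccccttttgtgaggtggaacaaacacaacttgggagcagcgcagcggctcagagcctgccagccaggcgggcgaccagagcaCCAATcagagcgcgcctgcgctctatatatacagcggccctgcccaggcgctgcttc
HIST1H2BC: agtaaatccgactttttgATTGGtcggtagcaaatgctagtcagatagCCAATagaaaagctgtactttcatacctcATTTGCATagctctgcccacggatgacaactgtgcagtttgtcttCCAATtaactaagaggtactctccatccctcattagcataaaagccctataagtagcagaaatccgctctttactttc
HIST1H3B: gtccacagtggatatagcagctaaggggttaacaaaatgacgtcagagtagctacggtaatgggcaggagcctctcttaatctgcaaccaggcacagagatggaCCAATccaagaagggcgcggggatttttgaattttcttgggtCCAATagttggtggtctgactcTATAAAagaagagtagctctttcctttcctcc
HIST1H4E: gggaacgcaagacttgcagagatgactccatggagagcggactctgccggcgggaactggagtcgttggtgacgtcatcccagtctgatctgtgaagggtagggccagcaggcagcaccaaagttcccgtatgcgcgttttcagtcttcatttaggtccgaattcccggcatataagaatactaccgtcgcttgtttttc
The stretch shown for HIST1H2BC holds the octamer and 3 CCAAT matches. A TATAAA match lies in its window outside that stretch, on the strand of the neighbour HIST1H2AC and just before the start of HIST1H2AC. The HIST1H4E window holds none of the motifs. The whole HIST1H2BC window overlaps that of HIST1H2AC, on the other strand, by 255 bases (chr6:26123922-26124176), with the starts 244 bases apart. In all, 9 such head-to-head pairs were found, each of an H2A with an H2B gene. In 8 pairs both genes had a mean FPKM over 20, and in 1 pair, HIST1H2AA with HIST1H2BA, both stood at or below 20.

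Most members were abundant, and a minority were close to silent. Of the 71, 55 had a mean FPKM over 20 across the libraries, from 44.1 for HIST3H2A to 692 for HIST2H2BF, and 16 stood between 0 and 17.0. HIST1H2AA was listed at 0 in every library, and 12 members never reached an FPKM of 2. By class, 4 H1, 14 H2A, 15 H2B, 10 H3 and 12 H4 genes stood over 20. The H1 class rested almost wholly on 4 genes (HIST1H1B to HIST1H1E), which held nearly all of its summed FPKM, while the 4 most abundant genes held 47.9% of H2A, 48.3% of H2B, 60.5% of H3 and 51.0% of H4. Single values are uncertain where genes share sequence. HIST2H2AA3 and HIST2H2AA4, HIST2H3A and HIST2H3C, and the loci of HIST2H4B are identical over all their 50-base stretches, HIST1H4J shares 91.2% of them with HIST1H4K, and HIST1H2AD and HIST1H4I lie wholly within HIST1H3D and HIST1H2BK. HIST2H2BA, annotated as a non-coding transcript, shares 50.6% with HIST2H2BF.

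**Figure D1:**
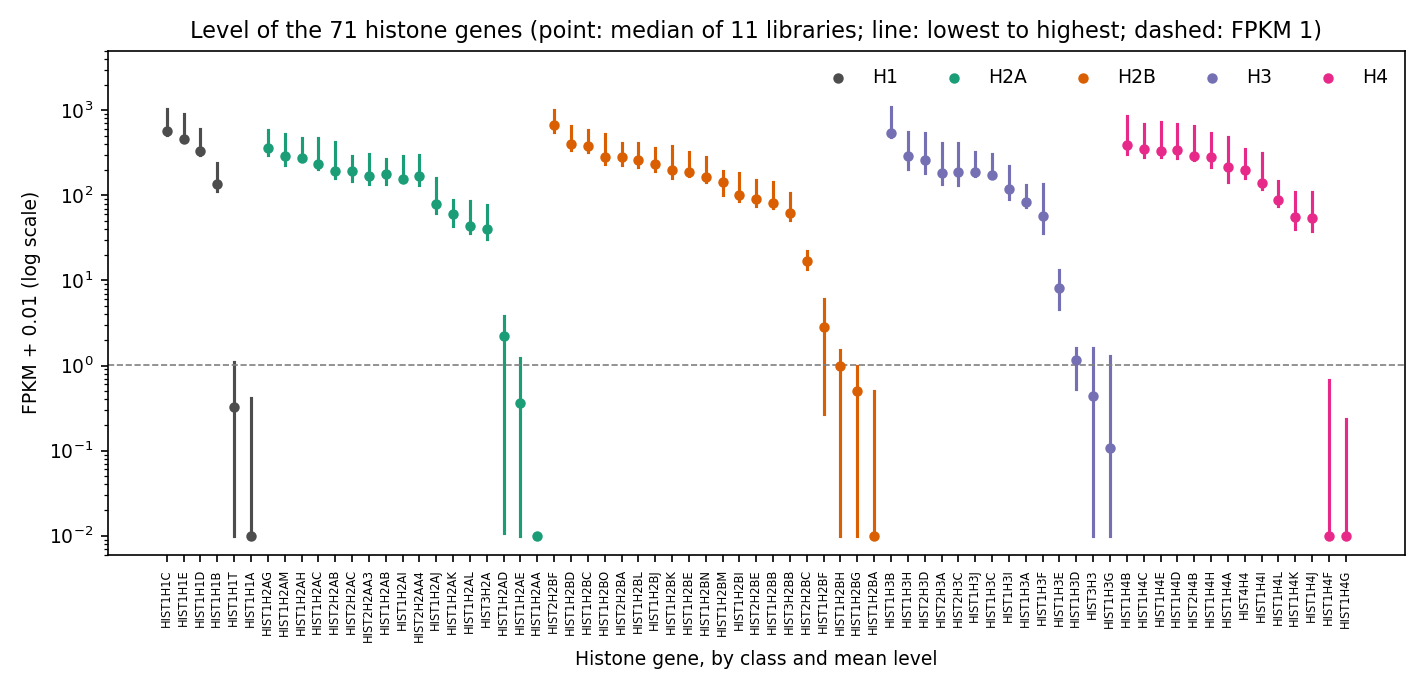
FPKM plus 0.01 of the 71 histone genes on a log axis, ordered by class and mean level, with the median of the 11 libraries as a point and the lowest to highest library as a line. The 55 genes with a mean over 20 form the upper band, and 16 genes with a mean between 0 and 17.0 lie below it.

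After 2 weeks of CSC, every histone class stood higher than in DMSO in CSC replicates 1 and 3, and close to DMSO in CSC replicate 2. Summed over all members, the FPKM was 12567, 11343 and 11282 in the DMSO libraries and 21949, 12228 and 19802 in the CSC libraries (replicates 1, 2 and 3). CSC replicates 1 and 3 were thus at 1.87 and 1.69 times the DMSO mean, and replicate 2, at 1.04 times, lay within the DMSO range. The group means were 11731 ± 725 (SD, n = 3) in DMSO and 17993 ± 5107 (SD, n = 3) in CSC, a ratio of 1.53 with groups that overlap. In bulk RNA, more cells in S phase and more histone RNA per such cell cannot be told apart. Histones held 2.88% to 3.13% of the summed FPKM in the DMSO libraries of 2 weeks and 4.53%, 3.15% and 4.79% in the CSC libraries.

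The classes followed the same library pattern with different sizes. H4, which forms the first tetramer of the nucleosome with H3, summed to 2755, 2468 and 2469 in DMSO and 5600, 2716 and 4625 in CSC, a ratio of means of 1.68. H3 summed to 2187, 1782 and 1855 in DMSO and 4083, 1974 and 3360 in CSC, a ratio of 1.62. In both classes CSC replicates 1 and 3 stood above every DMSO library, and replicate 2 lay within the DMSO range. H2A, which joins the nucleosome as a dimer with H2B, summed to 2480, 2167 and 2316 in DMSO and 4349, 2346 and 3845 in CSC, a ratio of 1.51. H2B summed to 3616, 3443 and 3212 in DMSO and 5137, 3641 and 5594 in CSC, a ratio of 1.40. H1, the linker histone, summed to 1529, 1483 and 1429 in DMSO and 2780, 1551 and 2377 in CSC, a ratio of 1.51. The H2B and H1 sums of CSC replicate 2 lay just above the highest DMSO library, so those groups did not overlap, and in H2A the groups overlapped.

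The balance between classes also shifted in single libraries. The ratio of summed H4 to summed H2B FPKM was 0.717 to 0.769 in the DMSO libraries of 2 weeks and 1.09, 0.746 and 0.827 in the CSC libraries. CSC replicate 1 stood highest of all 11 libraries, and replicate 2 again lay among the DMSO values. At 48 hours the ratio was 0.757 and 0.709 in DMSO and 0.904, 0.828 and 0.886 in CSC, so the 3 CSC libraries stood above both DMSO libraries. Over all libraries H2B held 23.4% to 30.4% of the histone FPKM, H4 21.0% to 25.5%, H2A 19.1% to 20.5%, H3 15.7% to 18.6% and H1 11.2% to 14.4%. These sums carry no p-value, since they are scores over genes chosen as a list. The factor of FPKM over the midpoint of its bounds differed with gene length and library. Shares and ratios between classes of unlike length carry that uncertainty.

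**Figure D2:**
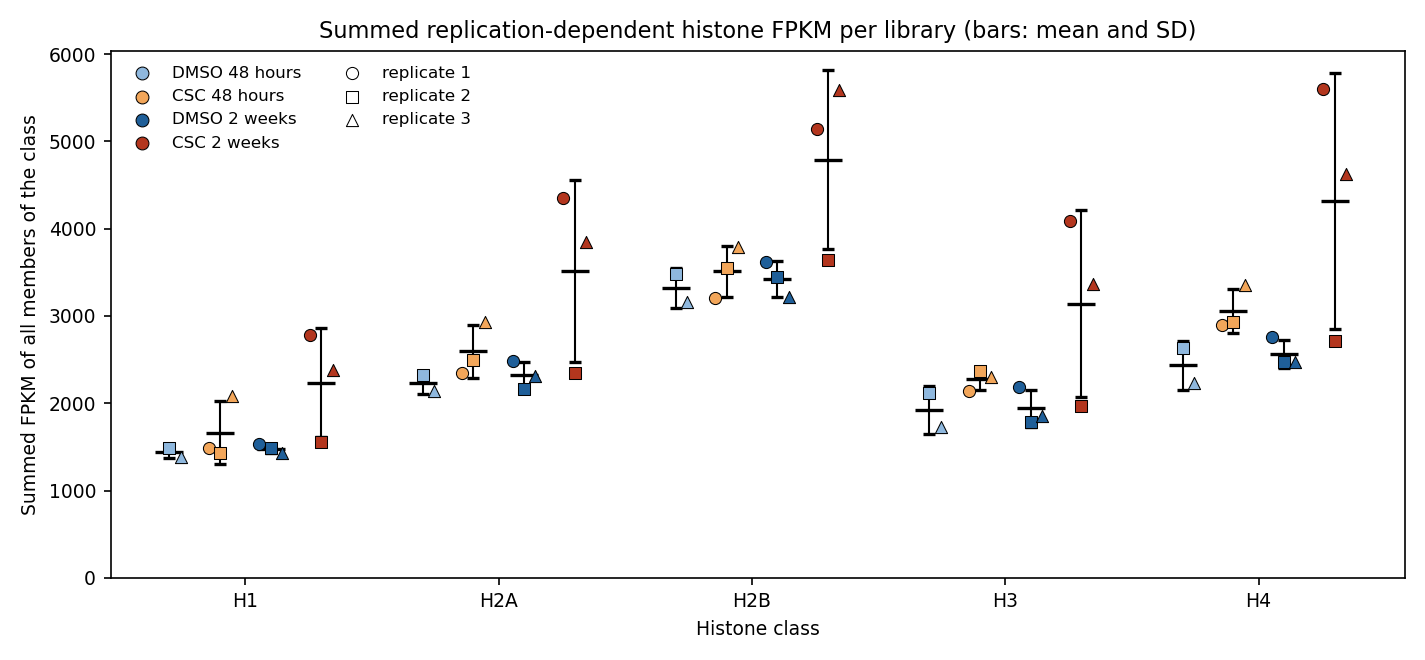
Summed FPKM of each histone class (vertical axis) in every library, coloured by group and shaped by replicate, with the group mean and SD as black bars. In each class the CSC 2 weeks replicates 1 and 3 are the 2 highest points of their time, and replicate 2 (square) sits near the DMSO points.

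Gene by gene, the same split between libraries ran through nearly all abundant members. Over the 55 genes with a mean FPKM over 20, the ratio to the DMSO mean of 2 weeks had a median of 1.96 in CSC replicate 1 (1.15 for HIST2H2BA to 2.56 for HIST1H3F) and 1.70 in replicate 3 (1.40 for HIST2H2AC to 2.19 for HIST1H3F). In replicate 2 the median was 1.04 (0.810 for HIST1H2AK to 1.23 for HIST4H4). In the 3 DMSO libraries of 2 weeks the median was 1.07, 0.968 and 0.959. Of the 62 members that could be tested, 57 (91.9%) in CSC replicate 1 and 59 (95.2%) in replicate 3 lay above every DMSO library of 2 weeks, against 55% and 49.9% of all 12506 genes tested. In replicate 2 it was 20 members (32.3%), against 29.6% of all genes.

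**Figure D3:**
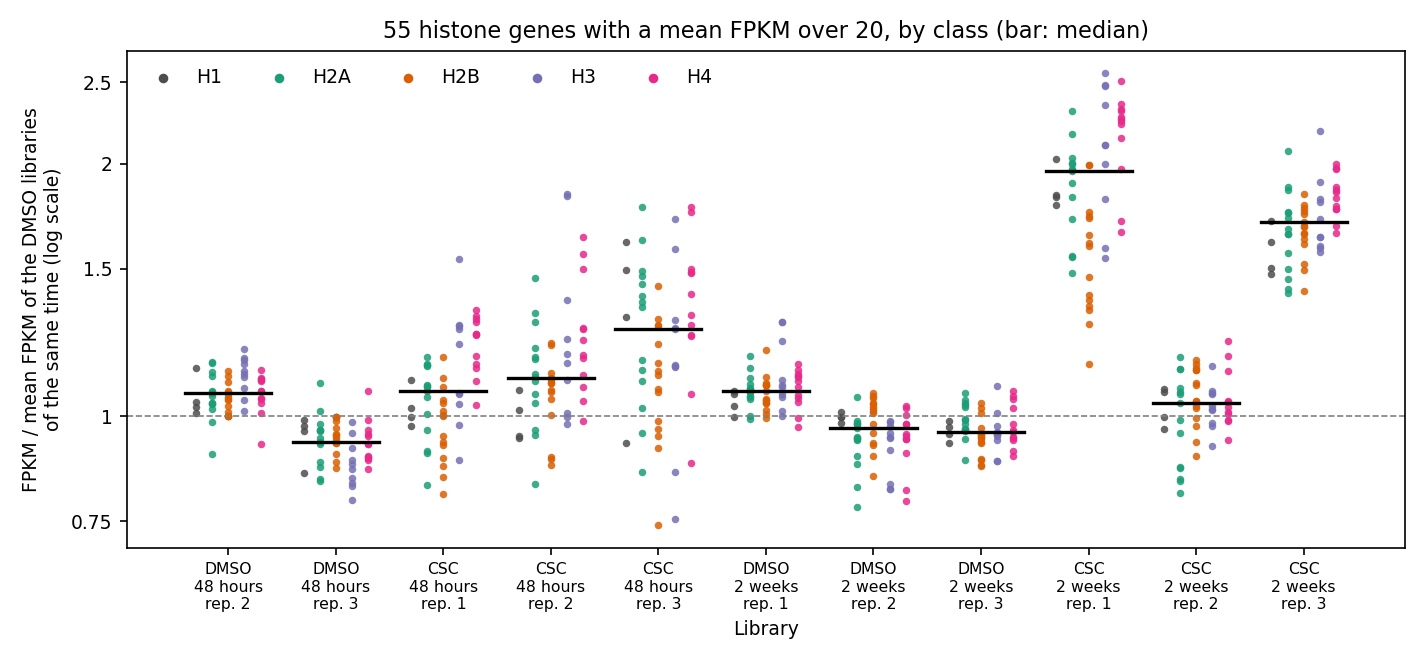
FPKM of the 55 histone genes with a mean over 20, divided by the mean of the DMSO libraries of the same time (log axis), in each of the 11 libraries; points are genes coloured by class and bars are medians. The medians of CSC 2 weeks replicates 1 and 3 are 1.96 and 1.70, that of replicate 2 is 1.04, and that of CSC 48 hours replicate 3 is 1.27.

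Tested gene by gene across all 3 CSC libraries, 2 of 62 histone genes rose at 2 weeks (3.23%), near the 3.01% of all genes tested that rose, and 0 fell, against 2.4% of all genes. The test was limma on log2(FPKM + 0.5) with Benjamini-Hochberg adjustment over 12506 genes and a threshold of 0.05, and 9 members were too low to be tested. An unadjusted p under 0.05 was reached by 48 members (77.4%), against 24.6% of all genes. The log2 change was above 0 in 61 of 62 members, with a median of 0.58 beside 0.09 for all genes tested, and HIST1H2BH was the exception at -0.37 (adjusted p = 0.664). Medians were 0.48 in H1, 0.54 in H2A, 0.48 in H2B, 0.65 in H3 and 0.71 in H4. The groups did not overlap in 20 members (32.3%), all higher in CSC, against 20.3% of all genes higher and 9.84% lower. In the same contrast the 8 markers of the cell line had a median log2 change of -0.39, and their part in the histone values was not tested.

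HIST1H4C, an H4 gene at chr6:26104176-26104565 (hg19, plus strand), was at an FPKM of 292, 287 and 299 in DMSO and 689, 345 and 578 in CSC. All 3 CSC libraries stood above DMSO, with replicate 2 nearest to it. It rose by 0.82 ± 0.21 (SE) on the log2 scale (adjusted p = 0.0460). HIST1H3E, an H3 gene at chr6:26225383-26225844 (plus strand) and 1 of the 3 loci without the stem-loop sequence, was far less abundant, at 6.90, 6.65 and 4.59 in DMSO and 13.1, 8.58 and 9.89 in CSC. The groups did not overlap, and it rose by 0.75 ± 0.17 (adjusted p = 0.0261). Both calls depend on single libraries. HIST1H4C had an adjusted p of up to 0.163 (without CSC 2 weeks replicate 3, log2 change 0.74) and kept its call in 2 of the 11 fits that left out 1 library, and HIST1H3E had up to 0.114 (without DMSO 2 weeks replicate 3, log2 change 0.58) and kept it in 7.

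Because CSC 2 weeks replicate 2 stood apart, the fit was also read without it. The library was singled out after its values were seen. Its histone values lay near DMSO, so larger changes and smaller p without it follow from that choice. This holds for every histone value given without replicate 2, here and below, and none of them is independent support. Without that library, 51 of 62 members rose (82.3%) and 0 fell, against 10.5% of all genes that rose and 4.28% that fell, with a median log2 change of 0.83 beside 0.14 for all genes tested. By class, 4 of 5 H1, 12 of 15 H2A, 12 of 18 H2B, 11 of 12 H3 and 12 of 12 H4 genes rose, with median log2 changes of 0.78, 0.86, 0.70, 0.96 and 1.02. HIST1H4C and HIST1H3E were among them. An unadjusted p under 0.05 was reached by 56 members (90.3%), against 34.1% of all genes. Leaving out CSC replicate 1 or replicate 3 instead gave 0 members called, against 0.754% and 0.714% of all genes that rose. It was also 0 without DMSO 2 weeks replicate 2 or 3 (0.89% and 0.585% of all genes). It was 1 without DMSO 2 weeks replicate 1 (1.03%), DMSO 48 hours replicate 2 (2.23%) or 3 (2.19%), or CSC 48 hours replicate 1 (2.41%) or 2 (3.09%). Leaving out CSC 48 hours replicate 3, which enters only through the spread, gave 10 members called, against 5.46% of all genes. The library left out was the deepest, with the lowest RPPH1 and the highest FPKM relative to its bounds, and the part of these in the result was not tested.

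**Figure D4:**
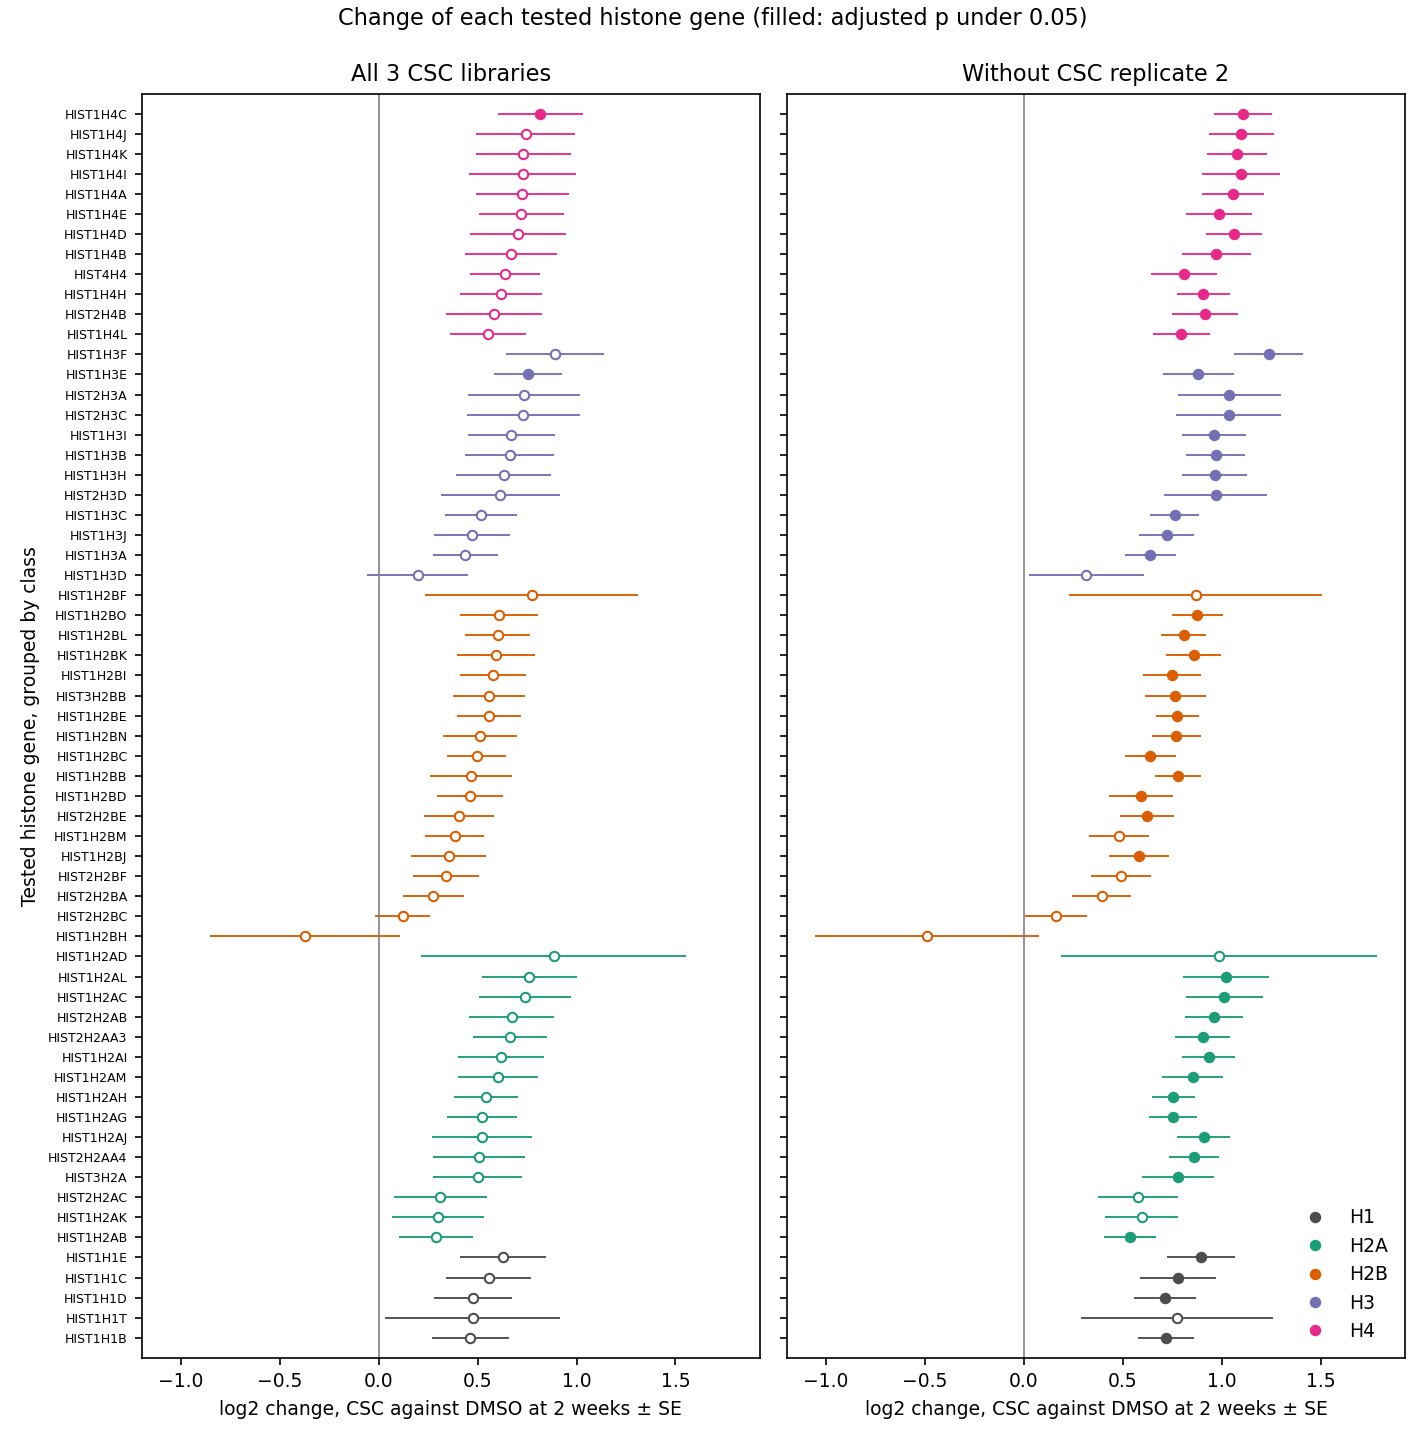
Log2 change of CSC against DMSO at 2 weeks with its SE (horizontal axis) for the 62 tested histone genes, grouped by class, from all 3 CSC libraries (left) and without CSC replicate 2 (right); filled points passed an adjusted p of 0.05. With all libraries 2 points are filled, and without replicate 2 it is 51.

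Among the H1 genes, which compact the fibre of nucleosomes, HIST1H1C was the most abundant, at 577, 559.7 and 544 in DMSO and 1022, 604 and 905 in CSC. HIST1H1E was at 451, 458 and 446 in DMSO and 915, 483 and 772 in CSC. In both genes all CSC libraries lay above DMSO, and replicate 2 did so by the smallest margin. The log2 change was 0.56 ± 0.21 for HIST1H1C (adjusted p = 0.139; without replicate 2, 0.78 and 0.0255) and 0.63 ± 0.22 for HIST1H1E (0.106; without, 0.90 and 0.0103). HIST1H1D had a log2 change of 0.48 ± 0.20 and HIST1H1B of 0.46 ± 0.19, with adjusted p of 0.164 and 0.168. HIST1H1T, known from testis, did not exceed an FPKM of 1.10 in any library.

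Among the H2A genes, HIST1H2AG was at 368, 300.4 and 358 in DMSO and 587, 355 and 564 in CSC, so replicate 2 lay inside the DMSO range. HIST1H2AC was at 230.4, 214 and 211 in DMSO and 474, 249 and 410.3 in CSC, with no overlap. The log2 change was 0.52 ± 0.18 for HIST1H2AG (adjusted p = 0.1003) and 0.74 ± 0.23 for HIST1H2AC (0.0808). Without replicate 2 these were 0.75 (0.00531) and 1.01 (0.0102). HIST1H2AM and HIST1H2AH had log2 changes of 0.60 ± 0.20 and 0.54 ± 0.16, with adjusted p of 0.0981 and 0.0706.

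The log2 changes of the H2B genes ran from -0.37 for HIST1H2BH to 0.77. HIST2H2BF, the most abundant histone gene, was at 728, 692 and 582 in DMSO and 860.3, 682 and 1014 in CSC, with replicate 2 inside the DMSO range. Its log2 change was 0.34 ± 0.17 (adjusted p = 0.225; without replicate 2, 0.49 and 0.0516) and turned to -0.01 under quantile normalization. HIST1H2BC was at 354, 377 and 336 in DMSO and 521, 410.5 and 588 in CSC, without overlap, and its log2 change was 0.50 ± 0.15 (0.0705; without, 0.64 and 0.0129). HIST1H2BD and HIST1H2BO had log2 changes of 0.46 ± 0.17 (0.119) and 0.61 ± 0.20 (0.0881). The 5 abundant H2B loci spanning over 1 kb (HIST1H2BD, HIST1H2BK, HIST2H2BA, HIST2H2BE and HIST2H2BF) had a median log2 change of 0.40 (0.28 to 0.59), and the 10 shorter ones of 0.54 (0.35 to 0.61). Their summed FPKM in CSC was 1.33 and 1.46 times that in DMSO, a difference that was not tested and that was looked for after the values were seen.

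Among the H3 genes, HIST1H3B was at 556, 483 and 499 in DMSO and 1079.65, 528 and 932 in CSC. HIST2H3D was at 279.8, 189 and 213 in DMSO and 534, 209.8 and 362 in CSC. In both, replicate 2 lay inside the DMSO range and the other CSC libraries above it. The log2 change was 0.66 ± 0.22 for HIST1H3B (adjusted p = 0.1003; without replicate 2, 0.97 and 0.00411) and 0.61 ± 0.30 for HIST2H3D (0.230; without, 0.97 and 0.0338). HIST1H3H and HIST2H3A had log2 changes of 0.63 ± 0.24 (0.134) and 0.74 ± 0.28 (0.139), the second shared with its identical copy HIST2H3C. HIST1H3F, named after its values were seen, had the largest log2 change of all tested members, 0.89 ± 0.25 (adjusted p = 0.0569; without replicate 2, 1.24 and 0.00304).

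Among the H4 genes, which encode the same protein from many loci, HIST1H4B was at 432, 354 and 335 in DMSO and 845, 389 and 629.8 in CSC. HIST1H4E was at 341, 336 and 308 in DMSO and 732, 372 and 579.9 in CSC. In HIST1H4B replicate 2 lay inside the DMSO range, and in HIST1H4E it lay above it. The log2 change was 0.67 ± 0.23 for HIST1H4B (adjusted p = 0.108; without replicate 2, 0.97 and 0.00801) and 0.72 ± 0.21 for HIST1H4E (0.0701; without, 0.99 and 0.00622). HIST1H4D and the 2 summed loci of HIST2H4B had log2 changes of 0.70 ± 0.24 (0.105) and 0.58 ± 0.24 (0.165). HIST4H4, the only member on chromosome 12 and named after its values were seen, was at 184, 185 and 198 in DMSO and 314, 233 and 350.3 in CSC, with no overlap, and its log2 change was 0.64 (adjusted p = 0.0564).

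Every gene cluster stood higher in the mean of CSC than in that of DMSO at 2 weeks. The 55 members of the HIST1 cluster (chr6:25726291-27861669, hg19) summed to 1.56 times the DMSO level, the 12 of HIST2 on chromosome 1 to 1.46, the 3 of HIST3 on chromosome 1 to 1.49 and HIST4H4 to 1.58. In CSC replicate 2 alone these ratios were 1.05, 0.997, 1.04 and 1.23. No test of the difference between clusters was made.

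At 48 hours the sums stood slightly higher in CSC, led by replicate 3. All members summed to 12046 and 10653 in DMSO and to 12072, 12772 and 14455 in CSC, so the CSC libraries lay above both DMSO libraries, replicate 1 close to the higher of them. The means were 11350 ± 985 (SD, n = 2) and 13100 ± 1225 (SD, n = 3), a ratio of 1.15. H4 summed to 2633 and 2238 in DMSO and 2894, 2935 and 3352 in CSC, a ratio of 1.26 without overlap. H2B summed to 3479 and 3156 in DMSO and 3203, 3546 and 3785 in CSC, a ratio of 1.06 with overlap. The ratios for H1, H2A and H3 were 1.16, 1.16 and 1.18.

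By gene, 0 of 62 members passed at 48 hours (limma, Benjamini-Hochberg), against 0.104% of all genes that rose and 0.184% that fell. An unadjusted p under 0.05 was reached by 1 member (1.61%), HIST4H4 with a log2 change of 0.46 ± 0.20 (adjusted p = 0.567), against 8.49% of all genes. The log2 change was above 0 in 54 of 62, with a median of 0.16 beside 0.00 for all genes and of 0.38 in H4, the highest class. Groups did not overlap in 19 members (30.6%), all higher in CSC and 8 of them in H4, against 11% of all genes higher and 11.8% lower. In HIST1H4C, for example, DMSO stood at 351 and 283 and CSC at 375, 375 and 471.

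Within CSC 48 hours replicate 3 the members spread widely. Over the 55 abundant genes its ratio to the DMSO mean ran from 0.743 for HIST1H2BM to 1.77 for HIST4H4, with a median of 1.27, while the medians of replicates 1 and 2 were 1.07 and 1.11. Of the 62 tested members 47 (75.8%) lay above both DMSO libraries, against 39.7% of all genes. Another 6 lay below both (HIST1H2BB, HIST1H2BM, HIST1H2BN, HIST1H3A, HIST1H4L and HIST2H3D). The share of all genes below both was not counted, so these 6 are not read as a result about histones. In replicates 1 and 2 it was 31 (50%) and 37 (59.7%) above, against 35.5% and 34.3% of all genes. HIST1H1C stood at 871 in replicate 3 against 513 to 597 in the other 4 libraries of 48 hours, whereas HIST2H3D stood at 181 against 220.1 to 329.8. This heterogeneity among members of one library is a description and was not tested.

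The effects at 2 weeks and 48 hours were compared in the same fit, so they share its estimate of spread. The difference, 2 weeks minus 48 hours, passed for 0 of 62 members (limma, Benjamini-Hochberg), against 0.008% of all genes in the higher and 0.032% in the lower direction. An unadjusted p under 0.05 was reached by 3 members (4.84%), against 7% of all genes, and the median difference was 0.36 beside 0.09 for all genes. Without CSC 2 weeks replicate 2 it was again 0 after adjustment (0.00801% of all genes higher, 0.016% lower), with 45 members (72.6%) at an unadjusted p under 0.05, against 12.8% of all genes. A larger CSC effect at 2 weeks than at 48 hours was therefore not shown for any single histone gene.

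In DMSO the histone genes at 2 weeks stood near their level at 48 hours. Between 48 hours and 2 weeks of DMSO 0 of 62 members passed (limma, Benjamini-Hochberg) and 0 had an unadjusted p under 0.05, against 0.656% of all genes that rose, 0.112% that fell and 12.8% at the unadjusted threshold. Groups did not overlap in 4 members higher and 1 lower at 2 weeks, against 28.8% and 7.88% of all genes. The ratio of the summed FPKM was 1.03, and its log2 value of 0.05 turned to between -0.05 and -0.11 under 4 other scalings. In CSC, 3 members rose from 48 hours to 2 weeks (4.84%), all H2B, and 0 fell, against 12.3% and 1.38% of all genes. An unadjusted p under 0.05 was reached by 25 members (40.3%), against 34.4% of all genes, and the groups did not overlap in 4, all higher, against 28.4% higher and 4.47% lower of all genes. This comparison shares its 2-week CSC libraries with the one against DMSO. HIST1H2BM (chr6:27782822-27783267) went from 116, 138 and 102 to 189, 156 and 194, HIST1H2BE (chr6:26184024-26184458) from 168, 172 and 190.0 to 298, 198 and 323, and HIST1H2BI (chr6:26273204-26273640) from 97.0, 94.0 and 128 to 169, 123 and 185. The groups did not overlap in the first and second of these and overlapped in HIST1H2BI.

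Their log2 changes were 0.60 ± 0.15 for HIST1H2BM, 0.60 ± 0.16 for HIST1H2BE and 0.57 ± 0.17 for HIST1H2BI, with adjusted p of 0.0274, 0.0358 and 0.0424. Against DMSO at 2 weeks the same genes had log2 changes of 0.38, 0.56 and 0.58, with adjusted p of 0.140, 0.0641 and 0.0620. All 3 calls between the times ended under median-of-ratios, common-sum and quantile scaling. The median of all genes tested moved in this contrast from 0.19 to -0.09 under the common sum, and the histone median from 0.41 to 0.10. Without CSC 2 weeks replicate 2, 49 members were called (79%), all higher, against 19.7% of all genes higher and 1.4% lower.

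The named genes of the machinery around histone mRNA had log2 changes below the histone median of 0.58. SLBP, which binds the stem-loop, was at 28.4, 29.2 and 25.2 in DMSO and 37.9, 22.6 and 26.5 in CSC at 2 weeks, and the groups overlapped. Its log2 change was 0.04 ± 0.19 (adjusted p = 0.922) and turned negative under 4 other scalings, from -0.06 to -0.13. NPAT, the S-phase activator, had -0.12 (0.557), CASP8AP2, which sits with NPAT at histone locus bodies, -0.13 (0.451), and LSM11 of the U7 particle 0.13 (0.614, and -0.01 under a common sum without short RNAs). LSM10, the partner of LSM11 in the U7 ring, rose from 9.28, 10.9 and 8.54 to 17.7, 13.2 and 12.1, a log2 change of 0.54 ± 0.14 (adjusted p = 0.0410). It was the 1 of 36 genes of histone mRNA transcription, processing and decay that passed at 2 weeks, and the median of that list was 0.09, equal to that of all genes. The call for LSM10 ended under median-of-ratios and quantile scaling and a common sum without short RNAs (adjusted p of 0.0549, 0.0502 and 0.059), and the median of the list turned negative under both common sums (-0.04 and -0.07). Without CSC replicate 2, 6 of the 36 rose, against 10.5% of all genes.

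Genes of DNA replication and S phase, which rise in the same cell cycle window, stood close to DMSO. Of 47 such genes 1 rose at 2 weeks and 0 fell, with a median log2 change of 0.13. This was CDT1, which loads the replicative helicase, from 14.3, 13.1 and 14.7 to 22.6, 16.9 and 20.7, a log2 change of 0.49 ± 0.12 (adjusted p = 0.0378). That call ended under each of 4 other scalings (adjusted p of 0.0542 to 0.0953), and the S-phase median was -0.01 and -0.04 under the common sums. Of 32 genes of G2 and mitosis 0 passed (limma), and 3 had an unadjusted p under 0.05, against 24.6% of all genes. Their median was 0.11 and turned to -0.03 and -0.06 under the common sums. The medians per library were 0.29, -0.06 and 0.16 for S phase and 0.18, 0.01 and 0.12 for mitosis in CSC replicates 1, 2 and 3, beside 0.87, 0.05 and 0.76 for the histones and 0.17, 0.01 and 0.12 for all genes. The order of the libraries was thus the same in each list, with histones furthest from 0 in replicates 1 and 3. Without replicate 2, 4 of 47 S-phase genes and 1 of 32 mitosis genes rose, shares below the 10.5% of all genes that rose. The difference between the lists was not tested.

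At 48 hours these lists and the histones parted in direction in the library with the highest histone level. In CSC replicate 3 the median was -0.31 for S phase and -0.40 for mitosis, while that of the histones was 0.36. In replicates 1 and 2 the S-phase medians were -0.05 and -0.03 and the histone medians 0.08 and 0.15. None of the lists had a member that passed at 48 hours (limma, Benjamini-Hochberg). An unadjusted p under 0.05 was reached by 2 of 47 S-phase and 2 of 32 mitosis genes, against 8.49% of all genes.

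**Figure D5:**
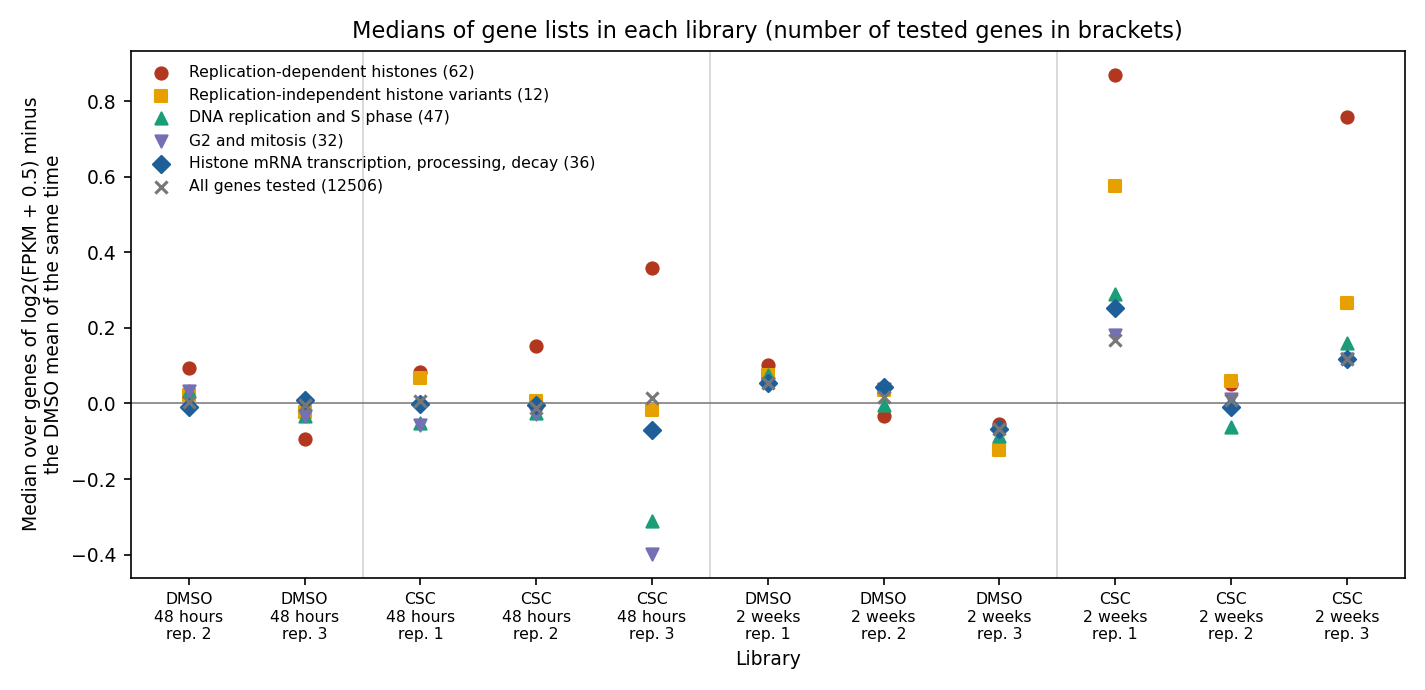
Median over the genes of a list of log2(FPKM + 0.5) minus the mean of the DMSO libraries of the same time (vertical axis) in each of the 11 libraries. The histone medians of 0.87 and 0.76 in CSC 2 weeks replicates 1 and 3 stand above the other lists, and in CSC 48 hours replicate 3 the histone median of 0.36 faces S-phase and mitosis medians of -0.31 and -0.40.

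Histone variants that are made outside S phase, from polyadenylated mRNAs, had a median change between those of the histones above and of all genes. That ranking was not tested. Of 12 tested 0 passed at 2 weeks (limma), and 3 had an unadjusted p under 0.05, against 24.6% of all genes. The median log2 change was 0.29, with library medians of 0.58, 0.06 and 0.27. Under the 4 other scalings the median log2 change was 0.12 to 0.19. Without replicate 2 it was 3 that rose, against 10.5% of all genes. H1F0, the linker histone of resting cells, was at 37.3, 37.7 and 33.3 in DMSO and 67.8, 50.8 and 66.6 in CSC, without overlap, a log2 change of 0.76 ± 0.23 (adjusted p = 0.0772; without replicate 2, 0.89 and 0.0429). In CSC 48 hours replicate 3 it stood at 79.9, against 37.1 to 39.6 in the other 4 libraries of that time. H2AFY2, a macroH2A, and H2AFV, an H2A.Z, rose from 48 hours to 2 weeks of CSC by 0.59 ± 0.12 (adjusted p = 0.0185) and 0.52 ± 0.13 (0.0298).

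Histone chaperones, which carry new histones to DNA, had a median log2 change of 0.17 at 2 weeks, beside 0.09 for all genes. Under the 4 other scalings the chaperone median was 0.002 to 0.08. Of 25, 0 passed (limma), and 4 had an unadjusted p under 0.05, against 24.6% of all genes. From 48 hours to 2 weeks of CSC 5 of 25 rose and 0 fell, among them RBBP7 (0.46, adjusted p = 0.0251), NASP, the reservoir chaperone for H3 and H4 (0.47, 0.0361), and ANP32E, which removes H2A.Z (0.42, 0.0399). In the same contrast 3 of 47 S-phase genes rose, among them RRM1, a subunit of ribonucleotide reductase (0.36, 0.0361), and RPA1, which binds single-stranded DNA (0.40, 0.0358). KIF20A, NUSAP1 and CCNB2, which act in mitosis, rose by 0.69, 0.39 and 0.40 (adjusted p of 0.0195, 0.0264 and 0.0473). Of 7 inhibitors of cell cycle kinases and their partners 2 rose, CDKN2C by 0.56 (0.0285) and CDKN1A by 0.60 (0.0376), and RBL2 had 0.32 (0.115). Since 12.3% of all genes rose in this contrast, these shares lie on either side of the background. These calls between the times depend on the scaling. Of all genes, 1536 rose and 172 fell with the values as deposited, 184 rose and 243 fell under median-of-ratios scaling, 84 and 458 under a common sum and 122 and 200 under quantile normalization. When only the compared libraries were fitted it was 57 and 21. No chaperone, S-phase, mitosis, variant or kinase inhibitor gene rose under any of these settings or under a common sum without short RNAs, and 1 or 2 chaperones fell under the 4 scalings. The log2 changes of the called genes named here and of H2AFY2 and H2AFV stayed above 0, with the lowest at 0.01 for RRM1. Short RNAs without poly(A) tails, TERC, RMRP and RPPH1, had log2 changes of 0.36, -0.02 and 0.07 at 2 weeks. Of these 3, 0 passed (limma), and 1 had an unadjusted p under 0.05, against 24.6% of all genes.

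Markers of the labelled cell type stood lower or higher in CSC than in DMSO, and 0 of 8 passed with the values as deposited (limma). KRT8, an epithelial keratin, was at 1745, 1669 and 1519 in DMSO and 1289, 995.4 and 1036 in CSC at 2 weeks, with CSC lower and no overlap, and its log2 change was -0.58 (adjusted p = 0.0529). KRT18, its partner, had -0.51 (0.0900) and the adhesion molecule EPCAM -0.41 (0.233). ALDH1A1 was also lower without overlap, at 2245, 2292 and 2002 in DMSO and 1691, 1488 and 1517 in CSC. AKR1B10 went the other way without overlap, at 946, 992 and 828 in DMSO and 1301, 1050 and 1018 in CSC. In EPCAM, KRT7, CDH1 and AKR1C1 the groups overlapped, and in KRT18 CSC was lower without overlap. Of all genes, 20.3% were higher and 9.84% lower without overlap. The 8 markers had a median of -0.39, with 0 that passed (limma), while 3 or 4 fell under the 4 other scalings. An unadjusted p under 0.05 was reached by 3 of the 8, against 24.6% of all genes. The library medians were -0.22, -0.40 and -0.56 in CSC replicates 1, 2 and 3. At 48 hours the median of the markers was -0.40, again with 0 that passed and 3 at an unadjusted p under 0.05 (limma), against 8.49% of all genes. Of the markers of other cell types, COL1A1, a collagen of fibroblasts, had -0.51 (0.0758). From 48 hours to 2 weeks of CSC, KRT8, KRT18 and COL1A1 rose by 0.76 (0.0185), 0.78 (0.0192) and 0.80 (0.0159), and from 48 hours to 2 weeks of DMSO COL1A1 rose by 1.08 (0.014). The calls for the keratins between the times in CSC ended under quantile normalization and when only the compared libraries were fitted. That for COL1A1 in CSC ended under a common sum, quantile normalization and a common sum without short RNAs (limma, adjusted p of 0.0562, 0.054 and 0.0588). AKR1C1 also rose between the times in CSC, and its call ended under the 4 other scalings and when only the compared libraries were fitted.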

How the data were processed

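Gene expression was measured in 11 RNA-seq libraries. Ribosomal RNA was removed from total RNA with a Ribo-Zero kit, and reads were aligned to hg19 with TopHat2 version 2.0.9, per the labels' protocols. CASAVA version 1.7.1a5 appears in the submitters' processing notes. The authors deposited FPKM, 1 value per locus of a gene with bounds below and above it, in 25275 lines per library. How FPKM were computed, on which annotation, with which strand setting and scaling, is not given in the sources used here. No count model was used, since whole reads could not be recovered.

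FPKM were summed over the loci of a symbol. Of 23609 symbols 1, whose estimate was marked as failed, was left out. The 12506 genes that reached an FPKM of 1 in 2 or more libraries were tested on log2(FPKM + 0.5), in 1 fit of 4 groups with limma (version 3.58.1, R 4.3.3; eBayes with a mean-variance trend), Benjamini-Hochberg adjustment over all of them and a threshold of 0.05. A fold change on this scale understates the change of low genes. Groups were taken from the sample titles. Sums, shares and counts of members carry no test.

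Named were the 4 most abundant members of each class, every called member, members at several loci, SLBP, NPAT, LSM10, LSM11 and CASP8AP2, and the 3 genes of each other list with the smallest p in any contrast. Exceptions are marked in the text. The members, gene lists and tests were chosen with earlier results of these data known. Stem-loops were read from the build that the files use, and promoters come from RefSeq.

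The procedure was tested on simulated data. Other pseudocounts, filters, scalings, variance models, library weights, a replicate block, fits of only the libraries compared and each library left out in turn were tried. The midpoint of the bounds in place of the FPKM, sums without members spanning over 1 kb, and the other gene lists under each scaling, were added after the data were seen.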

Additional observations from a re-analysis of the deposited data

How the results depend on the processing

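The number of histone genes called at 2 weeks was 2 with the settings of the report. In that fit 376 of all genes rose, and the number that rose in each other fit is given in brackets. The histone count was 0 with no filter on low values (184), 6 when an FPKM of 5 was required (405) and 1 under quantile normalization (310). It was 1 in eBayes without the trend (347), 6 when only the compared libraries were fitted (571) and 0 with the midpoint of the bounds (320). With library weights it was 59 (3781). The estimate of those weights (limma's arrayWeights) stopped before its convergence tolerance was met, so each value given here with library weights comes from weights that had not converged. Leaving out 1 library gave 0 to 51: 51 with CSC 2 weeks replicate 2 left out, 10 with CSC 48 hours replicate 3 left out, and 0 for CSC 2 weeks replicate 1 or 3 and DMSO 2 weeks replicate 2 or 3. The other 5 libraries left out gave 1 each. At 48 hours it was 0 under every setting tried. For the difference of the effects it was 2 with library weights (48 of all genes higher and 36 lower) and 0 otherwise. From 48 hours to 2 weeks of CSC the report's count was 3, and 1536 of all genes rose. The count became 0 with no filter (689 of all genes rose) and under median-of-ratios (184), common-sum (84) and quantile scaling (122). It was also 0 under a common sum without short RNAs (70) and when only the compared libraries were fitted (57). Library weights gave 56 (4858) and the midpoint of the bounds 1 (1222). Leaving out 1 library gave 0 to 49 there. It was 0 without CSC 48 hours replicate 1 (799 of all genes rose) or CSC 2 weeks replicate 1 (114) or 3 (562). It was 49 without CSC 2 weeks replicate 2 (2452). The cause was not tested for any of these. Whether the replicate numbers pair the libraries is not known. Of 15 same-numbered pairs, 5 had a correlation of their deviations from the group means over 0.1. The range was -0.2022 to 0.3108, against -0.222 to 0.2816 for other pairs. Deviations within groups of 2 or 3 libraries must cancel, so these correlations cannot settle the pairing. With the replicate number as a block the count was 6 at 2 weeks, 0 at 48 hours and 5 from 48 hours to 2 weeks of CSC. Of all genes, 595 rose at 2 weeks and 2079 in that contrast of times with the block, against 376 and 1536 without it.

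The log2 ratio of the sum of all members at 2 weeks was 0.62, and lay between 0.33 and 0.83 over the settings, 0.45 to 0.83 with 1 library left out. Under quantile normalization it was 0.24 for H1 and 0.22 for H2B. Between the times in DMSO the log2 ratio of 0.05 turned to -0.0471 under median-of-ratios scaling, -0.0714 under a common sum, -0.11 under quantile normalization and -0.10 under a common sum without short RNAs, and ran from -0.0382 to 0.14 with 1 library left out. In CSC the 0.46 between the times became -0.0147 under quantile normalization and 0.0864 under a common sum without short RNAs. A common sum moved the median of all genes at 2 weeks from 0.09 to -0.04 and the histone median from 0.58 to 0.44. Of single genes, HIST2H2BF turned to -0.0091 under quantile normalization and LSM11 to -0.0131 under a common sum without short RNAs. SLBP turned to -0.056 under median-of-ratios scaling, -0.10 under a common sum, -0.061 under quantile normalization, -0.13 under a common sum without short RNAs, -0.0715 with library weights, -0.0252 when DMSO 2 weeks replicate 3 was left out and -0.1676 when CSC 2 weeks replicate 1 was, and with 1 library left out it ran from -0.1676 to 0.1977. The depth in reads is unknown, so no counting error can be given, and 9 members were too low to be tested.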
